A study of Homo sapiens with 12 samples.

Results

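Proteasome genes were followed in the ALDH-positive fraction of 697 (EU3) cells, an established human B-cell precursor leukaemia line, with and without an shRNA against the RNA-binding protein IGF2BP1. The genes are all those whose name in the deposited normalized table has the form PSMA to PSMG followed by a number, which gave 47 of 26231 named genes. Of these 47 genes, 43 had enough reads to be tested and 4 (PSMB3, PSMB8, PSMB9 and PSMB10) did not. ALDH-positive cells, sorted for aldehyde dehydrogenase activity, made up every library. Treated SH2 cells carried the doxycycline-inducible shRNA SH2 with a GFP reporter, received doxycycline and were sorted for GFP (sets 1 to 4, n = 4). Untreated SH2 cells carried the same construct without doxycycline (sets 1 to 4, n = 4). Treated and untreated control cells served as the control for doxycycline (sets 2 and 4, n = 2 each). The labels mention a scrambled shRNA, but do not say whether these control cells carried it. Each set was a separate selection of ALDH-positive cells with its own doxycycline treatment. Neither the dose nor the duration of doxycycline was found in the labels.

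The proteasome degrades proteins tagged with ubiquitin. Its 20S core is a barrel of PSMA (alpha) and PSMB (beta) subunits, in which PSMB5, PSMB6 and PSMB7 hold the active sites. The 19S regulator caps the barrel: PSMC ATPases in its base unfold substrates, and in its lid of PSMD subunits the deubiquitinase PSMD14 removes ubiquitin. In lymphoid cells and under interferon gamma, PSMB8, PSMB9 and PSMB10 can replace PSMB5, PSMB6 and PSMB7 to form the immunoproteasome, and the PA28 activator of PSME1 and PSME2 can dock on the core. Proteasome inhibitors used against B-lineage cancers bind mainly PSMB5. The 47 genes comprised 8 of the alpha ring, 4 structural and 3 catalytic beta subunits and 3 immunoproteasome subunits. They also comprised 6 base ATPases, 3 other base subunits, 8 lid subunits, 3 base chaperones and 4 core chaperones. The rest were 3 PA28 genes, the activator PSME4 and the inhibitor PSMF1.

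The promoters of the 3 genes that passed the test between SH2 and control cells are printed here. Of these, PSMA8 had no read in any control library. PSMB5 and PSME4 passed in treated cells only, and their calls were lost in several alternatives given below. Each runs from 250 bases before to 50 bases after the start, in RefSeq on GRCh38.p14. PSMA8 lies at chr18:26133619-26133918 (+), PSMB5 at chr14:23035171-23035470 (-) and PSME4 at chr2:53970944-53971243 (-). For PSMB5 this is one of the starts in the table. Capitals mark a CCAAT box in PSMB5 and, in PSME4, a match on the other strand to TGACNNNGC, the core of the antioxidant response element that NFE2L1 and NFE2L2 can bind.
PSMA8: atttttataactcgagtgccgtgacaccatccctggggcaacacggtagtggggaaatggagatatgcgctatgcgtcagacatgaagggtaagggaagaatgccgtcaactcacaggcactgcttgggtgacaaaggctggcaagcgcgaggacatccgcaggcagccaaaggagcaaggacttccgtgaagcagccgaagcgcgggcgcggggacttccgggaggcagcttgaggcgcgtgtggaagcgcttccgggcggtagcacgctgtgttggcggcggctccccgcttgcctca
PSMB5: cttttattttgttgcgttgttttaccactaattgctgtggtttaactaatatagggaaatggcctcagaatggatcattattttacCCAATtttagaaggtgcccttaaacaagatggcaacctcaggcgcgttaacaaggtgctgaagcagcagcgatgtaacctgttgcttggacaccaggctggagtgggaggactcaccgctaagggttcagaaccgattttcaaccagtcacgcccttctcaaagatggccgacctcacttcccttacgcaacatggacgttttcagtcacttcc
PSME4: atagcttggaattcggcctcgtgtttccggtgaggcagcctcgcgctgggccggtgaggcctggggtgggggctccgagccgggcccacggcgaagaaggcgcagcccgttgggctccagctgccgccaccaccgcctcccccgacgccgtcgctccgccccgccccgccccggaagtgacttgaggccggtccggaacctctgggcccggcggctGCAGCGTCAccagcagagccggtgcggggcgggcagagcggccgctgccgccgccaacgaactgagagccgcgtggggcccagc

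RefSeq promoters were found for 41 of the 47 genes, and motifs were searched on both strands of all promoters of the same length. TGACNNNGC stood in 15 of these 41 genes (36.6%), against 16.1% of 27305 genes. CCAAT stood in 19 (46.3%), against 39.7% of all genes. The core of the interferon response element, GAAA followed by any 2 bases and a further GAAA, stood in 7 (17.1%), against 4.38% of all genes. Those 7 were PSMB8, PSMB10, PSME1, PSME2, PSMA4, PSMB4 and PSMG4. None of these motifs lay in the PSMA8 promoter. These matches describe the letters of each window. The promoters also differed in base make-up, with a median of 22 CG pairs in these 41 genes against 14 over all genes. The part of this in the shares of motifs was not tested.

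Library depth ran from 2210291 to 3370952 gene-assigned reads, with at least 1 read for 15847 to 17439 genes. Treated SH2 set 4 stood apart from all other libraries: it lay at -76.1 on the second principal component, which held 17.6% of the variance. B-lineage markers were all detected, with summed levels of 1254 to 3253 CPM in treated SH2, 1238 to 3109 in untreated SH2, 2335 to 3172 in treated control and 2401 to 3208 in untreated control libraries (CPM, counts scaled to 1000000 reads of the TMM-adjusted library size). T-cell markers summed to 57.4 to 135 CPM in treated and 42.6 to 125 CPM in untreated SH2 libraries. In set 2 they summed to 1891 CPM in treated and 1734 CPM in untreated control cells, and in set 4 to 86.0 and 174 CPM. Myeloid markers summed to at most 19 CPM and erythroid markers to at most 0.297 CPM in any library.

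IGF2BP1, the gene the shRNA targets, had 6.28, 14.8, 25 and 16.2 CPM in treated SH2 cells of sets 1 to 4, against 21.7, 30.5, 39.2 and 32.9 CPM in untreated SH2 cells. It was lower in 4 of 4 sets, with a log2 fold change of -0.99 ± 0.43 (SE) and an adjusted p of 0.983 by edgeR. In control cells IGF2BP1 was near 0 (treated 0.961 and 0.382 CPM, untreated 1.42 and 0 CPM in sets 2 and 4), so the comparison of SH2 with control cells is one between cells that differ in the target before any doxycycline.

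Immunoproteasome levels could not be read from these counts. PSMB9, which replaces PSMB6, had 0 reads in all 12 libraries. With a floor of 3 counts over a group, this allows up to 0.271 CPM (here per reads assigned, without TMM) in treated SH2, 0.249 in untreated SH2, 0.5 in treated control and 0.621 in untreated control cells. PSMB8, which replaces PSMB5, had 13 reads in all: 6 in treated SH2, 1 in untreated SH2, 2 in treated control and 4 in untreated control cells. PSMB10, which replaces PSMB7, had 27 reads: 10, 12, 2 and 3 in the same groups. By library, PSMB8 had 0.838, 0.759, 0.329 and 0.337 CPM in treated SH2 cells of sets 1 to 4, and 0 in untreated SH2 cells except 0.302 CPM in set 4. It had 0 and 0.764 CPM in treated and 0 and 1.45 CPM in untreated control cells of sets 2 and 4. PSMB10 had 1.68, 1.9, 0.329 and 0 CPM in treated SH2 cells, against 2.05, 0.593, 0.648 and 0.905 CPM in untreated SH2 cells. In control cells PSMB10 had 0.641 and 0 CPM with doxycycline and 0 and 1.08 CPM without it. PSMB11, the thymus-specific subunit, had no read.

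Several properties of the tables moved with these low counts. PSMB8 and PSMB9 lie side by side in the major histocompatibility complex on chromosome 6 (PSMB8 32840717 to 32844703, PSMB9 32844136 to 32859585, GRCh38, GENCODE v29). The IDs that the deposited table names PSMB8 and PSMB9 (ENSG00000235715 and ENSG00000243958) are not those of the primary assembly (ENSG00000204264 and ENSG00000240065), which also had 0 reads. In that region of the chromosome, 149 of 174 protein-coding genes (85.6%) had no read in any library, against 188 of 859 (21.9%) on the rest of chromosome 6. TAP1, whose gene lies head to head with PSMB9 and whose protein carries peptides into the endoplasmic reticulum, had no read, and neither had TAP2 or TAPBP. Of all IDs in the count tables, 7662 of 64253 (11.9%) were not in the primary annotation, and alignments that were not unique took 42.2% to 63.8% of each table. Of the end bases of PSMB10 transcripts, where the reads of this kit fall, 92.9% lay in same-strand exons of another counted gene. The part of each of these in the low counts was not tested.

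PSMB3, a structural subunit of every 20S core, served as a check on such values: it had 2 reads in 12 libraries, both in untreated SH2 set 3. Of the 14 protein-coding genes of its neighbourhood, itself included, 8 had 5 reads or fewer and 3 of these had none, where 32.1% of all protein-coding genes had 5 reads or fewer. In that neighbourhood RPL23 (67945 reads) and LASP1 (8731 reads) were well covered, and no other gene had more than 67. A count near 0 therefore does not show absence of these 4 transcripts, and no level is drawn from them.

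**Figure D1:**
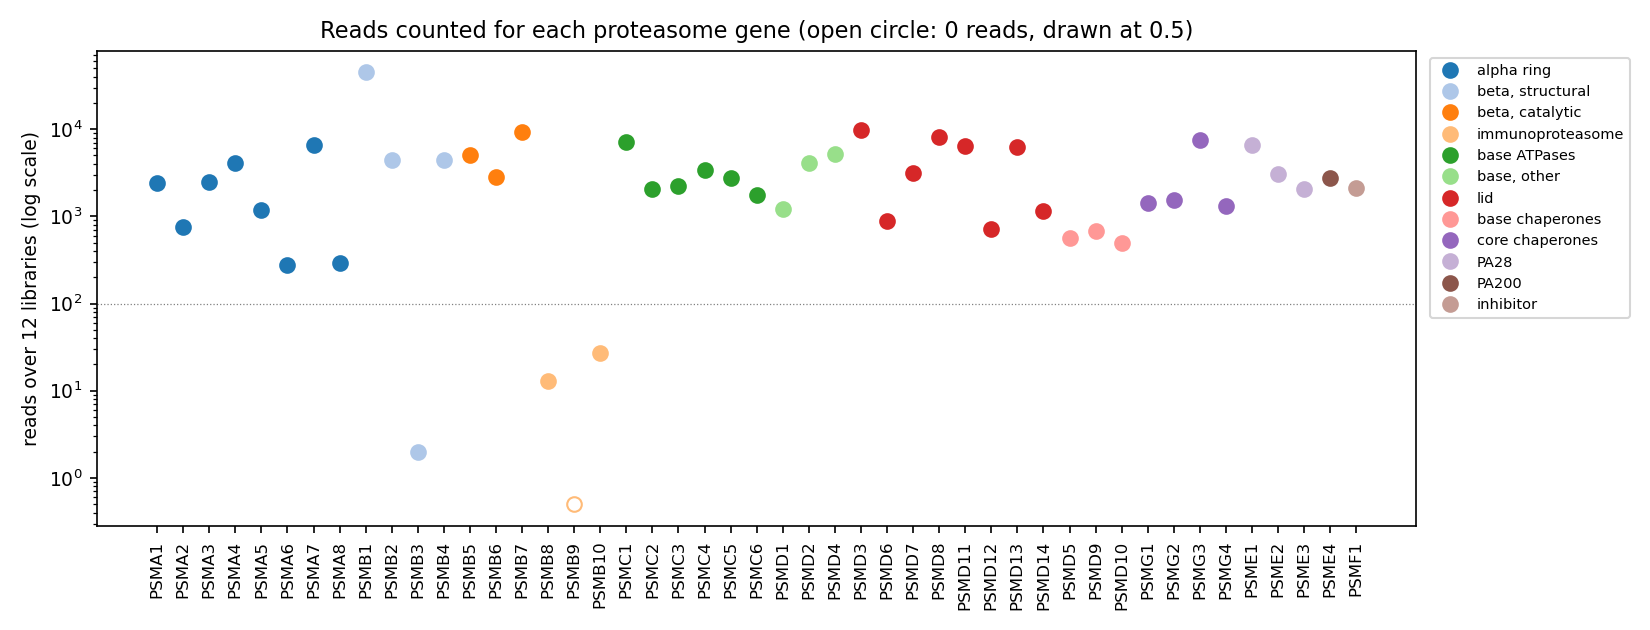
Reads summed over the 12 libraries for each proteasome gene (vertical axis, log scale), coloured by role and ordered along the horizontal axis by role. PSMB8 (13 reads), PSMB10 (27), PSMB3 (2) and PSMB9 (0, open circle) lie below the dotted line at 100 reads, and all other genes lie above it.

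Ratios of an inducible to its constitutive subunit cannot be read for the same reason. PSMB8 had 0 reads in 3 of 4 untreated SH2 libraries, so that its ratio to PSMB5 there is set by the 0.5 added to a count of 0. PSMB9 had no read at all, and PSMB10 had at most 12 reads over any group. Exact permutation tests on these ratios were run as planned but are not read, and no difference is drawn from them.

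The other 43 genes were well covered. Their median level was 80.1 CPM (quartiles 37.0 and 152), against 20.2 CPM over all 11968 genes tested. Each transcript gives about 1 read position at its end in this kit, so CPM is not divided by length. PSMB1, a structural beta subunit, was highest at a mean of 1303 CPM, then PSMD3 (291), PSMB7 (272) and PSMD8 (240). PSMA6 (8.21) and PSMA8 (8.42) were lowest. For PSMA6, 61.7% of the end bases lay in same-strand exons of another counted gene, so its level is uncertain. The median coefficient of variation between replicates was 29.4% over these genes in treated and 23.1% in untreated SH2 cells, against 37.1% and 30.3% over all genes. In treated SH2 cells it ran from 2.51% for PSMB6 to 77.2% for PSMB1, whose level in set 4 stood apart.

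Between SH2 and control cells the largest difference lay in PSMA8 (ENSG00000154611, chromosome 18, 26133852 to 26193355, + strand), known as the testis form of the alpha-ring subunit PSMA7. It had 10.9, 13.3, 18.1 and 13.8 CPM in treated SH2 cells (26, 35, 55 and 41 reads) and 9.02, 10.7, 16.2 and 9.05 CPM in untreated SH2 cells (22, 36, 50 and 30 reads) of sets 1 to 4. All control libraries had 0 reads. PSMA8 was therefore seen in every SH2 library and in none of the control libraries. It was at least 27.2-fold higher in treated SH2 than in treated control cells (157 reads against 0, floor 0.523 CPM, adjusted p = 0.000166). In untreated cells it was at least 18.4-fold higher (138 reads against 0, floor 0.616 CPM, adjusted p = 0.000355; edgeR quasi-likelihood test with Benjamini-Hochberg adjustment over 11968 genes, here and below). The floor is 3 counts over the group. With 0 reads in all control libraries, PSMA8 passed the filter on low counts only through the SH2 libraries.

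PSMA7 itself did not pass the test, with log2 fold changes of -0.26 ± 0.33 in treated and -0.12 ± 0.33 in untreated cells (SE). PSMA8 reads made up 7.76%, 9.11%, 9.63% and 4.3% of the reads of both genes in treated SH2 cells, against 4.8%, 6.58%, 7.35% and 4.66% in untreated SH2 cells. In control cells they were 0 of 428 to 650 PSMA7 reads, which allows a share of up to 0.462% to 0.701%. With doxycycline PSMA8 was higher in 4 of 4 SH2 sets, yet its log2 fold change of 0.32 ± 0.34 had an adjusted p of 0.986.

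Of 6 other protein-coding genes within 1000000 bases of PSMA8, AQP4 and CHST9 had no read, and the 4 with reads had negative log2 fold changes in both comparisons of SH2 with control cells. SS18, which encodes a chromatin remodelling subunit, was lower in untreated SH2 than in untreated control cells (log2 fold change -1.04, adjusted p = 0.0276), with -0.34 in treated cells (adjusted p = 0.478). TAF4B, a germ-cell form of a transcription factor subunit, had -1.76 in treated cells (adjusted p = 0.0633) and -1.67 in untreated cells (0.0898).

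**Figure D2:**
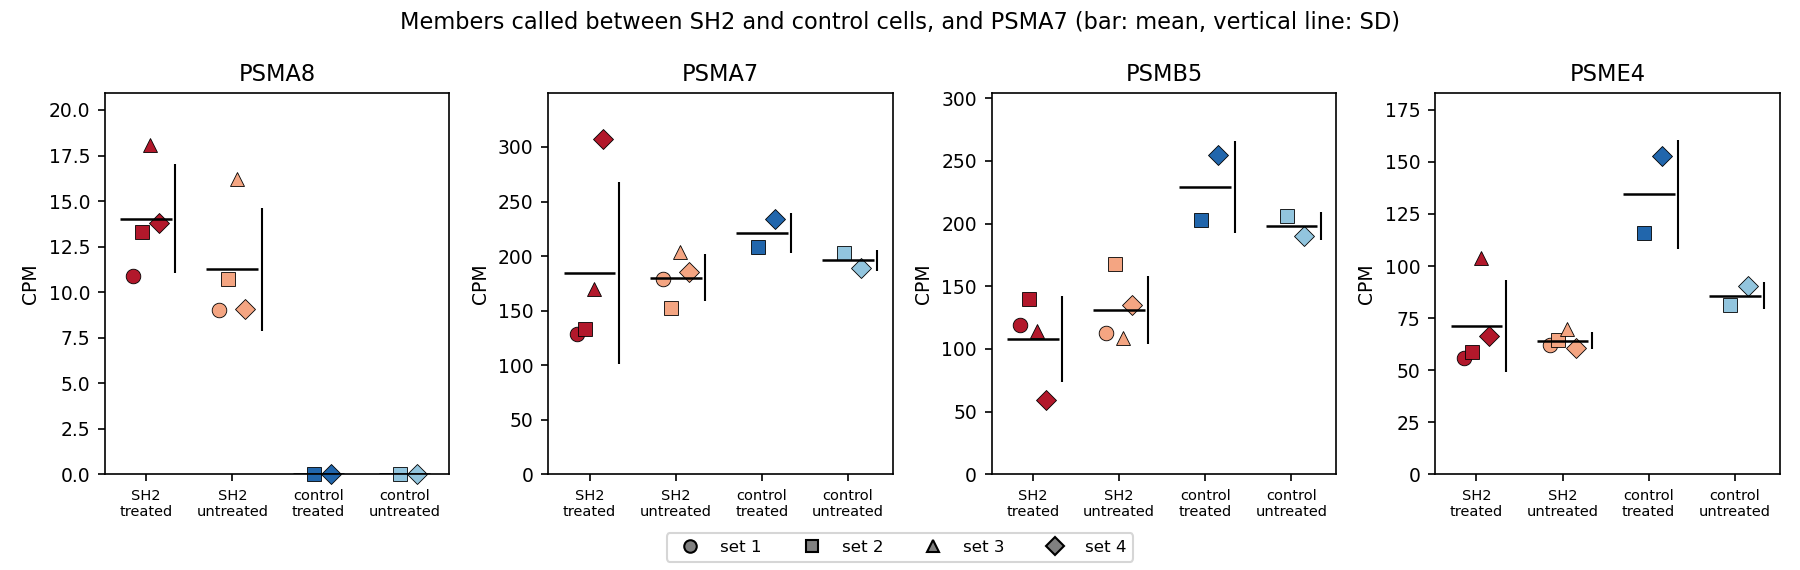
CPM (vertical axis) of the 3 genes past the threshold between SH2 and control cells and of PSMA7, in every library, with the mean and SD of each group and a marker shape for each set. PSMA8 is at 0 in all control libraries, and PSMB5 and PSME4 lie lower in treated SH2 than in treated control libraries.

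In treated cells 3 proteasome genes passed the threshold, 1 higher (PSMA8) and 2 lower in SH2 cells (PSMB5 and PSME4). Over all genes 11.1% passed in treated cells, 4.6% higher and 6.48% lower. In untreated cells PSMA8 passed and no other proteasome gene did, where 7.84% of all genes passed (2.94% higher and 4.9% lower). PSMA8 entered the test only through the SH2 libraries, so its call is not read against these shares. Unadjusted p-values under 0.05 were found for 6 of 43 proteasome genes in treated cells (25% of all genes) and for 5 of 43 in untreated cells (20.3% of all genes), PSMA8 among them in both. The median absolute log2 fold change of the proteasome genes was 0.36 in treated and 0.23 in untreated cells, against 0.545 and 0.464 over all genes.

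PSMB5 (ENSG00000100804, chromosome 14, 23016543 to 23035230, - strand), which carries the chymotrypsin-like site, had 119, 140, 114 and 59.6 CPM in treated SH2 cells of sets 1 to 4, against 203 and 255 CPM in treated control cells of sets 2 and 4. All 4 SH2 values lay below both control values. The log2 fold change was -1.08 ± 0.32 (SE), or 2.11-fold lower (adjusted p = 0.0408). Untreated SH2 cells had 113, 168, 109 and 135 CPM, against 206 and 190 CPM in untreated control cells, again without overlap (-0.59 ± 0.32, adjusted p = 0.335). The call in treated cells was lost without either control library (adjusted p = 0.0965 without set 2 and 0.271 without set 4), without treated SH2 set 1 (0.0506) or set 3 (0.072), and with a fit on the compared groups alone (0.121).

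PSME4 (ENSG00000068878, chromosome 2, 53864067 to 53970840, - strand) encodes PA200, an activator that docks on the core without ATP. Its levels were 55.7, 58.9, 104 and 66.4 CPM in treated SH2 cells, against 116 and 153 CPM in treated control cells. These groups did not overlap, and the log2 fold change was -0.92 ± 0.28 (SE), or 1.89-fold lower (adjusted p = 0.0471). In untreated cells PSME4 had 61.9, 64.6, 69.6 and 60.6 CPM with SH2, against 81.1 and 90.4 CPM in control cells (-0.42 ± 0.28, adjusted p = 0.475). The call in treated cells was lost in 9 alternatives, among them DESeq2 size factors (adjusted p = 0.0502), no filter on low counts (0.0952) and leaving out control set 2 (0.0866), control set 4 (0.338) or treated SH2 set 1 (0.0924), 2 (0.115) or 4 (0.0608).

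PSMC1, a base ATPase, stood on the other side. Treated SH2 cells had 147, 207, 293 and 370 CPM, against 111 and 130 CPM in treated control cells (log2 fold change 1.07 ± 0.35, adjusted p = 0.0617). Untreated SH2 cells had 207, 267, 280 and 238 CPM, against 111 and 112 CPM in untreated control cells (1.15 ± 0.35, adjusted p = 0.0591). Every SH2 library lay above every control library of the same treatment, with no call in either comparison in the test without a block. It did pass in some alternatives. With the set as a block it passed in treated cells (1.14, adjusted p = 0.0137) and in untreated cells (1.28, 0.0108), and so it did by DESeq2 (0.0183 and 0.0142). It also passed in treated cells without treated SH2 set 1 (0.0188). In untreated cells it passed without a filter on low counts (0.0317), with the compared groups alone (0.0211) and without both SH2 libraries of set 4 (0.0332). Across from 72.3% of the PSMC1 end bases lie exons of NRDE2 on the opposite strand. Because the counting's strand setting is not given in the sources used here, and 13 pseudogenes carry the PSMC1 name, its level is uncertain.

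In that same test no base or PA28 gene passed. All 6 base ATPases were positive in untreated SH2 against untreated control cells (median log2 fold change 0.56, range 0.1 to 1.15), and 5 of 6 in treated cells (median 0.40), PSMC6 being the exception at -0.2. Over all genes the medians were 0.03 and 0.04. Summed over 9 base subunits, levels averaged 927 ± 230 CPM in treated SH2 and 691 ± 11.4 CPM in treated control cells, and 988 ± 122 CPM in untreated SH2 and 686 ± 11.3 CPM in untreated control cells (SD, n = 4 and 2). Without PSMC1 the sums averaged 673 ± 134 CPM in treated SH2 and 570 ± 24.9 CPM in treated control cells. In untreated cells they averaged 740 ± 98.4 CPM with SH2 and 574 ± 12.6 CPM in control cells. The 3 PA28 genes were negative in untreated cells (median -0.58), and 2 of 3 in treated cells (median -0.41), where PSME2 had 0.26. PSME1 had 189, 140, 90.3 and 162 CPM in treated SH2 cells against 176 and 280 CPM in treated control cells, and 226, 164, 118 and 223 CPM in untreated SH2 cells against 235 and 354 CPM in untreated control cells.

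Among the other groups, the lid median was -0.11 in treated and 0.01 in untreated cells, and the alpha-ring median 0.2 and 0.03. Structural beta subunits had 0.38 and 0.21, catalytic ones -0.43 and 0.12, and core chaperones -0.43 and 0.0. PSMB7, the subunit with the trypsin-like site, had 299, 228, 311 and 319 CPM in treated SH2 cells against 311 and 227 CPM in treated control cells, and 308, 224, 311 and 230 CPM in untreated SH2 cells against 274 and 219 CPM in untreated control cells. Its groups overlapped in both. Among the core chaperones, which help to assemble the alpha ring, PSMG1 had 38.5, 23.5, 26.4 and 33.7 CPM in treated SH2 cells against 42.9 and 73.7 CPM in treated control cells. Its log2 fold change was -0.93 ± 0.29 (adjusted p = 0.0519), and with 1 library left out it ran from -1.28 to -0.5. It passed in 5 alternatives: with sets blocked (-1.0, adjusted p = 0.0226), by DESeq2 (0.028), and without treated SH2 set 1 (0.0373), treated SH2 set 4 (0.0445) or treated control set 2 (0.0394). PSMG1 was singled out after its values were seen.

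Groups did not overlap for 5 proteasome genes higher and 6 lower in treated SH2 against treated control cells, where 15.4% and 16.6% of all genes did not. In untreated cells 6 were higher and 6 lower, against 15.5% and 17.4% of all genes. PSMA8, with no read in control cells, was among the higher ones in both. T-cell markers were highest in both control libraries of set 2, and CD3E, TRAC and TRBC2 passed as lower in SH2 cells, treated and untreated. Among other markers, CD22 passed as lower in treated and untreated SH2 cells, CD79A as lower in untreated SH2 cells and CD33 as higher in both. Other markers of these lists went the other way. Of 7 tested T-cell markers, 1 was higher and 6 lower in untreated SH2 than in untreated control cells. In treated cells 2 were higher and 5 lower, CD7 being higher in both. Of 10 B-lineage markers, 4 were higher and 6 lower in untreated SH2 cells, and 5 higher and 5 lower in treated ones. The part of such RNA in the differences was not tested. In bulk RNA, fewer cells of a type and less RNA per cell cannot be told apart. PSMA8 passed in all 26 alternatives run. With 0 reads in every control library this outcome was set in advance, and it is not a check on the difference.

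**Figure D3:**
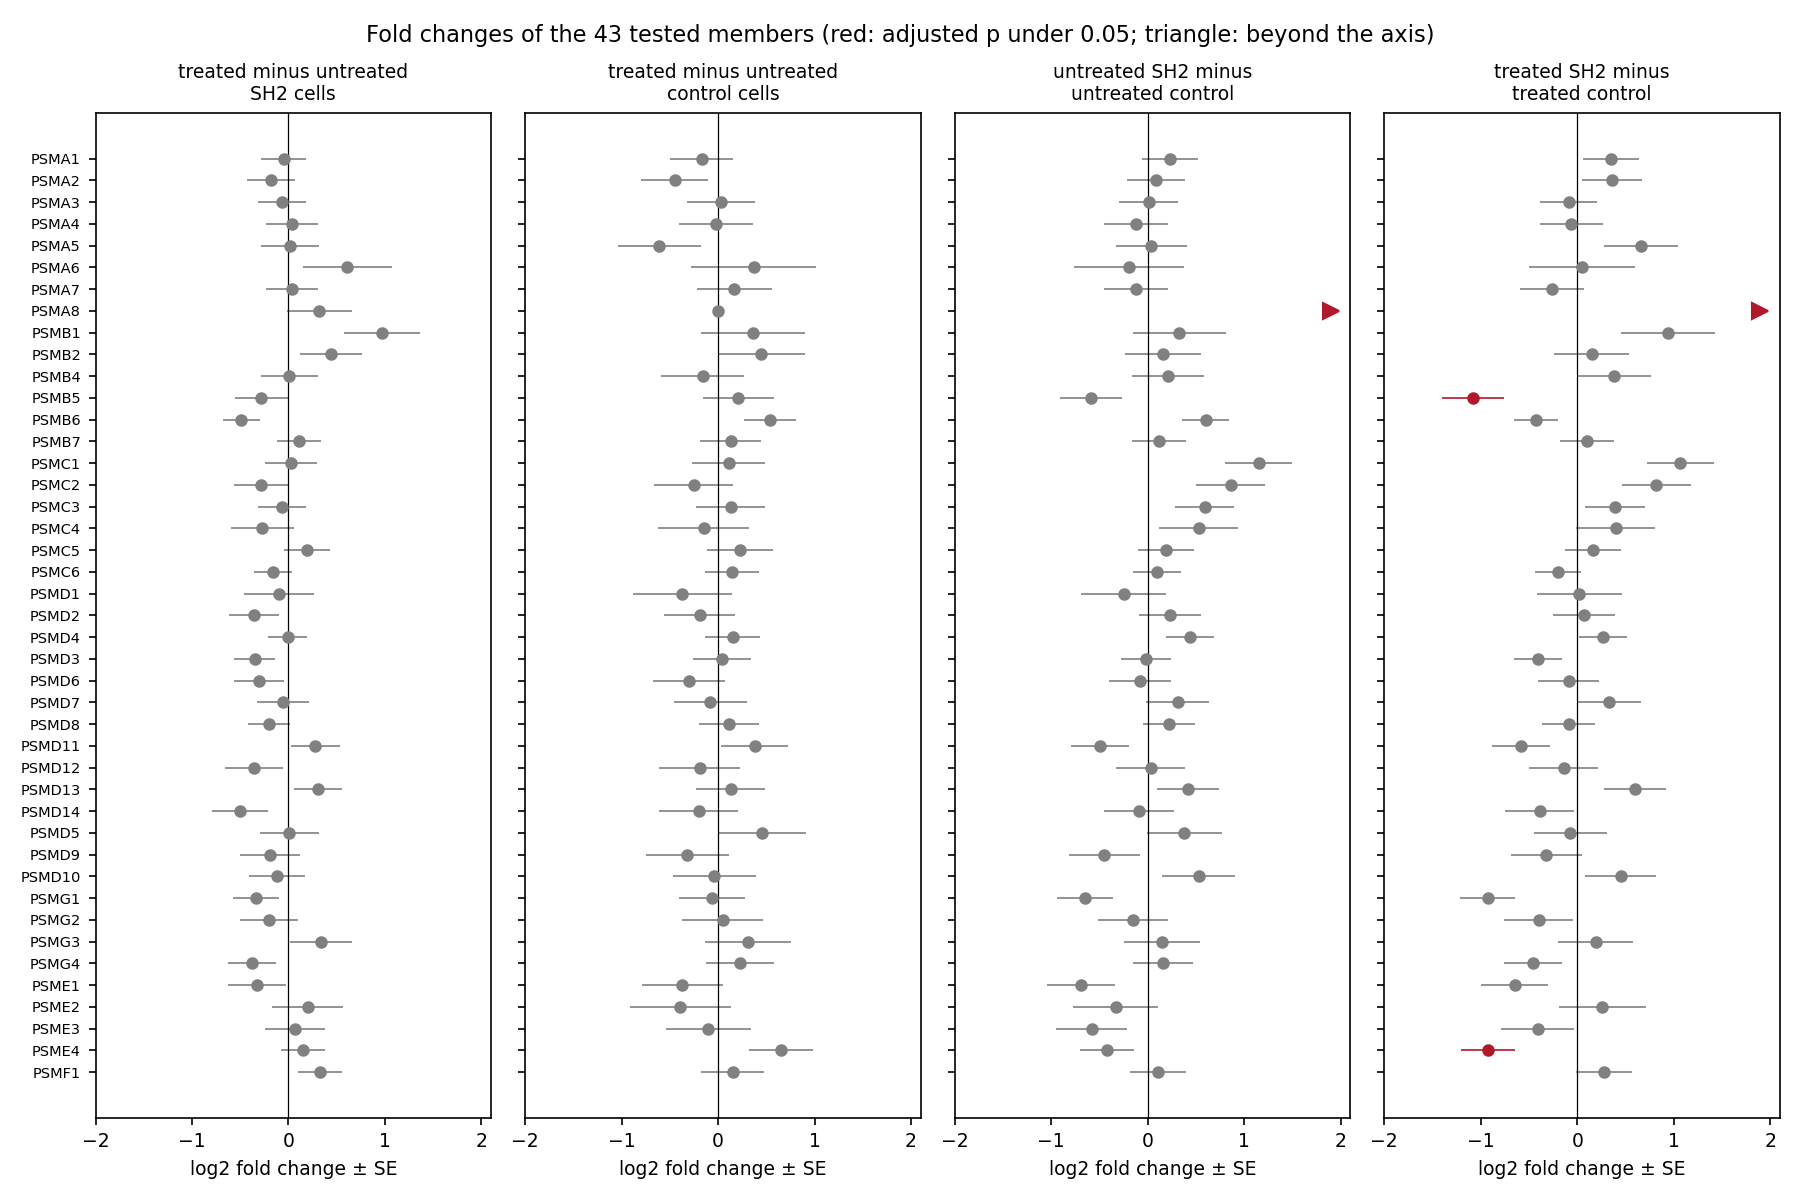
Log2 fold change with SE (horizontal axis) of the 43 tested proteasome genes in 4 comparisons, ordered by role. Red marks an adjusted p under 0.05: PSMA8 (triangle, beyond the axis) in both comparisons of SH2 with control cells, and PSMB5 and PSME4 in treated cells, with none in the doxycycline comparisons.

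Induction of the shRNA was followed by no call among the proteasome genes: 0 of 43 passed in treated against untreated SH2 cells by edgeR, as by the Wald test of DESeq2, and 2 had an unadjusted p under 0.05. Over all genes 0.0167% passed, and 4.88% had such a p. Log2 fold changes ran from -0.5 to 0.97, with 19 positive and 24 negative. Their median of -0.06 compares with 0.03 over all genes, and their median absolute value of 0.201 with 0.267. IGF2BP1 itself did not pass either (-0.99 ± 0.43, adjusted p = 0.983 by edgeR), so the lack of calls does not show unchanged levels. The 2 proteasome genes with a p under 0.05 were PSMB6 and PSMB1.

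PSMB6 (chromosome 17, 4796144 to 4798503, + strand), which carries the caspase-like site, had 71.6, 68.0, 70.8 and 71.8 CPM in treated SH2 cells of sets 1 to 4, against 91.0, 93.7, 96.8 and 114 CPM in untreated SH2 cells. All treated values lay below all untreated ones, and the set values were -0.34, -0.46, -0.45 and -0.67 on the log2 scale. The log2 fold change was -0.49 ± 0.19 (SE), with an unadjusted p of 0.0226 and an adjusted p of 0.983 by edgeR. In control cells PSMB6 had 82.4 and 108 CPM with doxycycline, against 66.0 and 65.1 CPM without it (sets 2 and 4), or 0.54 ± 0.27 (adjusted p = 1). The difference between both responses, SH2 minus control, was -1.03 ± 0.33, with an unadjusted p of 0.0078 and an adjusted p of 1. PSMB6 was thus the 1 proteasome gene with an unadjusted p under 0.05 in that test, where 0.969% of all genes had one. Against control cells, SH2 cells had 0.6 ± 0.24 without doxycycline (adjusted p = 0.169) and -0.43 ± 0.23 with it (adjusted p = 0.264).

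PSMB1 rested on a single library. It had 1116, 1210, 1332 and 4274 CPM in treated SH2 cells, against 990, 1117, 1058 and 872 CPM in untreated SH2 cells. Each treated library was higher than the untreated one of its set, and set 4 was far above the others. The log2 fold change of 0.97 ± 0.39 (unadjusted p = 0.0243, adjusted p = 0.983) came to 0.27 without treated SH2 set 4. In set 4 its log2 difference was 2.29, equalled or exceeded by 78 genes (0.652%). In control cells PSMB1 had 1171 and 895 CPM with doxycycline, against 890 and 715 CPM without it (0.36 ± 0.54).

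Large differences in set 4 were found over the whole transcriptome. There 6 of 43 proteasome genes (14.0%) differed over 2-fold between treated and untreated SH2 cells, in either direction, where 26.9% of all genes did. In sets 1 to 3 the counts were 0, 0 and 1 gene, against 6.65%, 6.56% and 7.65% of all genes. Median log2 differences were -0.15, -0.13, -0.25 and 0.13 in sets 1 to 4, against 0.0, 0.0, 0.01 and -0.01 over all genes. Summed levels of the 47 genes were 9531 CPM in treated SH2 set 4, and between 4631 and 5548 CPM in every other library. PSMB1 made up most of that excess: without it the sum was 5257 CPM there, and between 3515 and 4490 CPM elsewhere. Interferon response genes summed to 1315 CPM in treated SH2 set 4, against 142, 178 and 174 CPM in treated SH2 sets 1 to 3 and 122, 165, 196 and 204 CPM in untreated SH2 sets 1 to 4. Control libraries held 158 and 180 CPM of them with doxycycline and 155 and 238 CPM without it. All 11 tested interferon genes had a positive log2 fold change in treated against untreated SH2 cells (median 1.54), and 0 passed. The part of this library's other differences in the proteasome values was not tested. Without it the median log2 fold change of the proteasome genes was -0.2, and 0 genes passed.

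PSME2, an interferon-inducible PA28 subunit, was also high in that library, with 83.8, 56.2, 56.0 and 183 CPM in treated SH2 cells against 79.1, 48.9, 94.6 and 107 CPM in untreated SH2 cells. Its log2 fold change was 0.2 ± 0.37, and -0.34 without treated SH2 set 4. PSME1, its partner in the PA28 ring, was lower in 4 of 4 sets (189, 140, 90.3 and 162 CPM treated, against 226, 164, 118 and 223 CPM untreated), with -0.33 ± 0.30. In control cells PSME1 had 176 and 280 CPM with doxycycline against 235 and 354 CPM without it, lower in 2 of 2 sets. PSME2 had 85.6 and 72.6 CPM in treated and 91.6 and 116 CPM in untreated control cells. None of these passed the test.

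**Figure D4:**
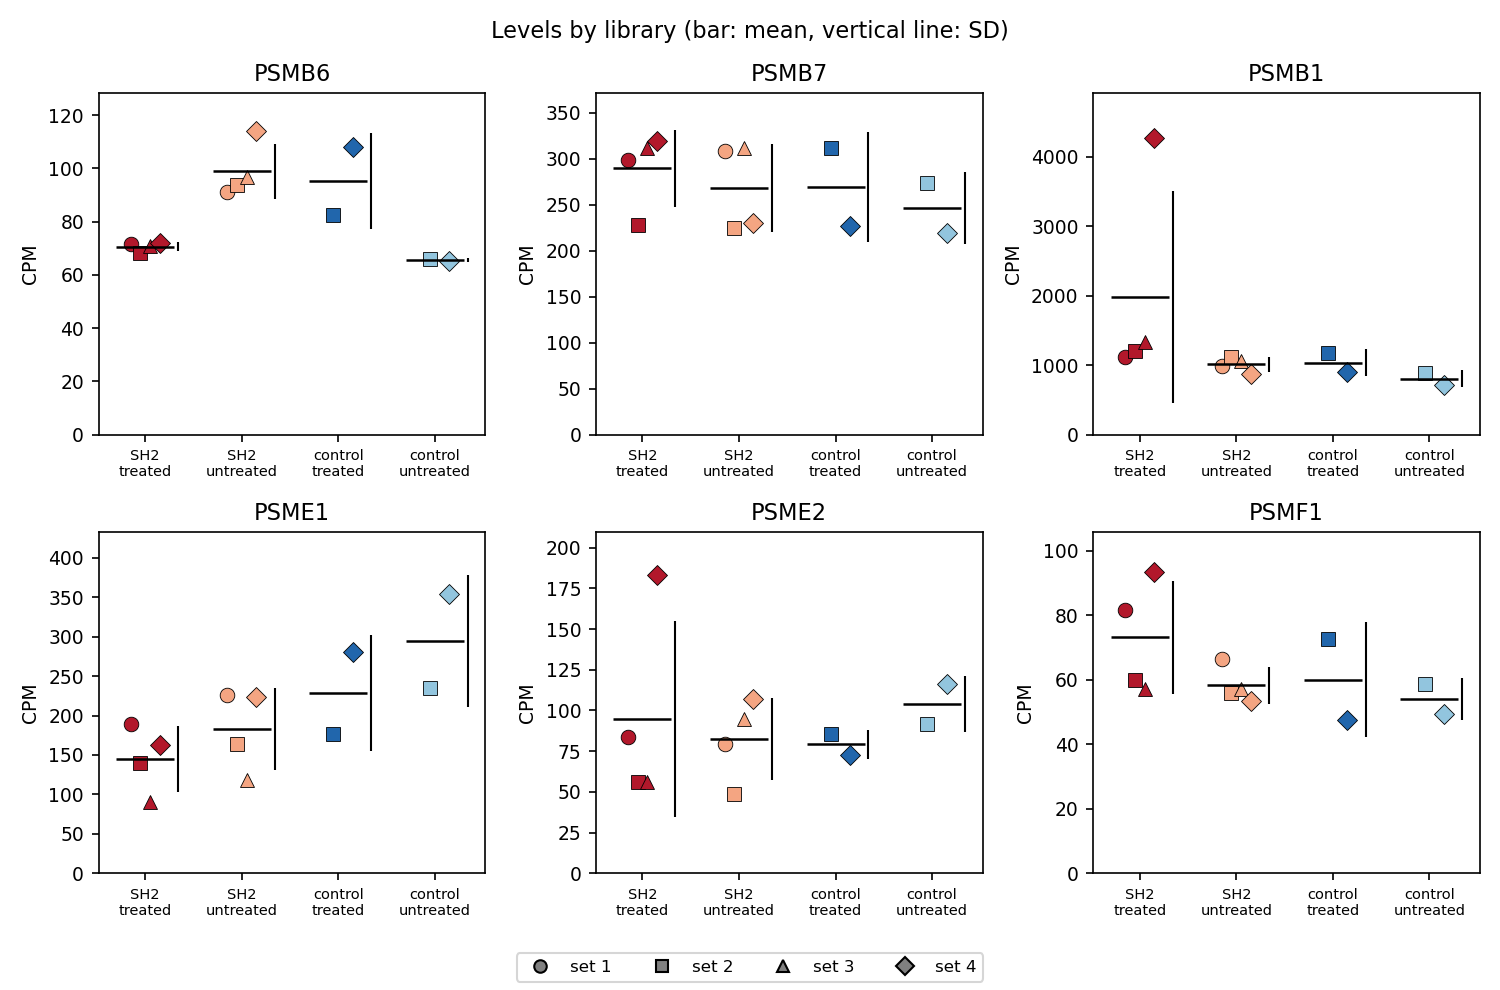
CPM (vertical axis) in every library for the catalytic subunits PSMB6 and PSMB7, the structural subunit PSMB1, the PA28 subunits PSME1 and PSME2 and the inhibitor PSMF1, with the mean and SD of each group. PSMB6 shows no overlap between treated and untreated SH2 libraries. Set 4 (diamonds) is highest among treated SH2 libraries for every gene but PSME1, though by little for PSMB6 and PSMB7.

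Of the remaining catalytic subunits, PSMB5 had -0.28 ± 0.27 and PSMB7 0.11 ± 0.23 between treated and untreated SH2 cells, on the values given above. PSMF1, which binds the core and inhibits it in vitro, had 81.7, 60.0, 57.3 and 93.6 CPM in treated SH2 cells against 66.4, 56.0, 57.3 and 53.4 CPM in untreated SH2 cells (0.33 ± 0.23). Control cells had 72.7 and 47.4 CPM of PSMF1 with doxycycline against 58.8 and 49.5 CPM without it. PSMD14, the lid's deubiquitinase, had 19.3, 24.7, 19.1 and 41.8 CPM in treated SH2 cells against 27.0, 32.0, 45.3 and 43.8 CPM in untreated SH2 cells. It was lower in 4 of 4 sets, although the groups overlapped (-0.5 ± 0.29, unadjusted p = 0.113). PSME4 had 0.15 ± 0.23 in SH2 cells, with set 3 alone at 104 CPM.

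By role, medians of the SH2 response lay between -0.28 and 0.44. Of 8 lid genes 6 were negative (median -0.25), of 6 base ATPases 4 (median -0.11) and of 3 other base subunits 3 (median -0.1). The alpha ring had 5 positive and 3 negative genes (median 0.03). Of 4 core chaperones 3 were negative (median -0.27), and so were 2 of 3 base chaperones (median -0.12). Genes lower in 4 of 4 sets numbered 7 (PSMB6, PSMC6, PSMD14, PSMD3, PSME1, PSMG1 and PSMG4), and those higher in 4 of 4 sets were PSMA8 and PSMB1. These were 16.3% and 4.65% of the proteasome genes, where 9.89% of all genes were lower and 10.4% higher in 4 of 4 sets. Groups did not overlap for 3 lower genes (PSMB6, PSMC6 and PSMD3) and 0 higher ones, where 2.03% and 1.38% of all genes did not.

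Control cells gave no call with doxycycline either, with 0 of 43 past the threshold by edgeR and by DESeq2 and 0 with an unadjusted p under 0.05. Over all genes 0.0% passed and 0.685% had such a p. Here 23 were positive and 19 negative, and PSMA8 had no reads. The smallest p-values were those of PSMB6, PSME4 and PSMA5. PSME4 had 116 and 153 CPM in treated against 81.1 and 90.4 CPM in untreated control cells (0.65 ± 0.33, unadjusted p = 0.0685). PSMA5, of the alpha ring, had 23.4 and 23.3 CPM in treated against 29.4 and 41.6 CPM in untreated control cells (-0.61 ± 0.43, unadjusted p = 0.184). In SH2 cells PSMA5 had 33.9, 34.9, 24.7 and 54.2 CPM with doxycycline against 27.0, 31.7, 30.8 and 56.4 CPM without it (0.02 ± 0.30).

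The difference between both doxycycline responses had 0 of 43 calls by edgeR and by DESeq2, as 0.0% of all genes passed by edgeR. Besides PSMB6, the smallest p-values were those of the core chaperone PSMG4 (-0.61 ± 0.43, unadjusted p = 0.174) and of PSME4 (-0.5 ± 0.40, 0.237). PSMG4 had 34.8, 25.8, 33.3 and 36.4 CPM in treated against 47.5, 34.7, 41.5 and 46.2 CPM in untreated SH2 cells. It had 43.6 and 45.8 CPM in treated against 50.3 and 26.0 CPM in untreated control cells. Over the 43 genes 39.5% were positive, against 50.8% of all genes.

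Genes that work with the proteasome were compared in the same way. Of 18 partners (among them the assembly factor POMP), 0 passed in any of the 5 comparisons by edgeR. Over all genes 7.84% passed between untreated SH2 and control cells, 11.1% between treated ones, and at most 0.0167% in the doxycycline comparisons. With doxycycline in SH2 cells, the smallest edgeR p-values before adjustment were those of UBE3C, a proteasome-bound ubiquitin ligase (0.56 ± 0.23, unadjusted p = 0.0307, adjusted p = 0.983), and UCHL5, a deubiquitinase bound to the 19S regulator (-0.61 ± 0.28, unadjusted p = 0.0477, adjusted p = 0.983). Among 7 genes of the pathway of NFE2L1, the transcription factor that raises proteasome genes after inhibition, 0 passed in any comparison. NFE2L1 itself had 0.26 ± 0.33 in treated against untreated SH2 cells.

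Of 6 ubiquitin and ubiquitin-activating genes, UBA1 was higher in treated SH2 than in treated control cells (1.41 ± 0.41, adjusted p = 0.0415), with 0.58 ± 0.40 in untreated cells (0.48). UBA6 was higher in untreated SH2 than in untreated control cells (1.26 ± 0.33, adjusted p = 0.0289), with 0.85 ± 0.32 in treated cells (0.106). Both encode enzymes that activate ubiquitin. Of 5 tested genes of peptide loading on class I molecules, ERAP2, a trimming peptidase, was higher in treated SH2 than in treated control cells (1.6 ± 0.40, adjusted p = 0.0199), with 1.25 ± 0.40 in untreated cells (0.0743). No gene of these lists passed with doxycycline. The lists are short, and their calls are not read as a result about a list.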

How the data were processed

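RNA was measured in 12 QuantSeq libraries, primed at the poly(A) tail so that reads fall near the transcript end, per the labels' protocols. HTSeq, FastQC, STAR, DESeq2 and the build GRCh38 are named in the submitters' processing notes, without versions. The authors deposited raw counts, whole reads for each gene ID. The authors also deposited a normalized signal for 26231 genes, which names the genes. All of its values (100%, tolerance 0.01) gave whole reads equal to the counts, and the count test on these reads made 2 calls between treated and untreated SH2 cells. Every column belonged to a library used here.

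Counts were analysed with edgeR 4.0.16 in R 4.3.3: filterByExpr by group (minimum count 10), TMM scaling, a robust quasi-likelihood fit on all 12 libraries with 1 term per group, and Benjamini-Hochberg adjustment over 11968 genes at a threshold of 0.05. This fit had no term for the set, so its p-values and SEs do not use the pairing by set. Sets 1 and 3 held SH2 libraries only. The SE is the log2 fold change divided by the root of its F. The biological coefficient of variation was 0.376. HTSeq summary lines were left out: reads outside genes took 3.25% to 7.73% and ambiguous reads 1.11% to 1.62% of each table. Alternatives were DESeq2 size factors, no filter, the set as a block, DESeq2 1.42.0 with its Wald test, fitting the compared groups alone, recovered reads, and leaving out libraries. The fit was also run on simulated data, and the outcome is not given here.

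Replicates were separate selections per the design text, and no pair agreed within sampling noise (chi-square per degree of freedom 9.29 to 54.5). Set numbers come from the labels and were taken to pair the samples. In SH2 cells, deviations from the group means correlated at 0.188 to 0.663 within a set and at -0.548 to 0.272 between sets. Treated SH2 set 2 correlated at 0.272 with untreated set 1, above the 0.188 with its own set. With 2 control libraries per group the deviations mirror each other, so 0.499 within and -0.499 between sets hold the same information. Ratios of counts had 0.5 added to both where a count was 0, and the exact permutation tests run on them are not read. Intervals and floors cover counting error only. Positions are from GENCODE v29, end bases are the last 300 of each coding transcript, and promoters are from RefSeq. The genes and lists were chosen with earlier results of these data known. Values in every library are given for PSMB5 to PSMB10, PSME1, PSME2, PSME4 and PSMF1, for genes past the threshold and for the 3 smallest p-values of each comparison. PSMG1, SS18, TAF4B and genes with a library far from its group fall outside this rule.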

Additional observations from a re-analysis of the deposited data

Results flagged for a closer look

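Among 86 groups of 4 SH2 libraries, 9 held a library far from the others of its group. Chance gives about 1 in 20 for independent groups, but these groups share their libraries, and no share over all genes is given here. The count is therefore not read as a result about proteasome genes. Of the 9, 6 were treated SH2 set 4, where 26.9% of all genes and 14.0% of proteasome genes differed over 2-fold from untreated SH2 set 4. In that library PSMB1 was highest at 4274 CPM (next 1332), PSMB2 at 290 (122), PSMD2 at 171 (92.2), PSMD8 at 294 (207), PSMD9 at 24.9 (14.2) and PSME3 at 97.4 (46.1). PSMA5 was highest in untreated SH2 set 4 at 56.4 CPM (next 31.7). PSMD3 was lowest in treated SH2 set 1 at 217 CPM (next 250), and PSMD4 was highest in treated SH2 set 3 at 206 CPM (next 156). PSMB6 was flagged because it was lower with doxycycline in 4 of 4 SH2 sets and higher in 2 of 2 control sets. The doxycycline response of SH2 minus that of control cells was -1.03 on the log2 scale and did not pass (unadjusted p = 0.0078, adjusted p = 1 by edgeR). The cause of these values was not tested.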

How the results depend on the processing

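No proteasome gene passed in either doxycycline comparison or in their difference under any alternative run, whereas over all genes the calls in treated against untreated SH2 cells ran from 0 to 47 (47 without a filter, 14 by DESeq2, 6 with the set as a block, 0 with the compared groups alone). The block changed the calls of PSMC1 and PSMG1, and no other proteasome call among the genes named. In untreated SH2 against untreated control cells 2 proteasome genes passed, both higher, without a filter, with the set as a block, by DESeq2, with the compared groups alone and without both SH2 libraries of set 4. Leaving out 1 library each gave 1 in every case, and over all genes 343 to 853 calls (343 without control set 2, 490 without control set 4), against 1449 without a filter and 1505 with the block. Over all genes DESeq2 made 1269 calls in untreated and 1749 in treated cells, against 938 and 1326 by the main edgeR fit. In untreated cells the compared groups alone gave 1019, and leaving out both SH2 libraries of set 4 gave 1032. In treated SH2 against treated control cells 5 proteasome genes passed (2 higher, 3 lower) with the block and by DESeq2, and 1 with the compared groups alone. Leaving out 1 library each gave 1 to 3 (1 without control set 4), and over all genes 645 to 1462 calls (645 without control set 4, 737 without control set 2), against 2171 with the block and 789 with the compared groups alone. The median of the proteasome genes there was -0.15 without treated SH2 set 4, against 0.05. In treated against untreated SH2 cells PSME2 reversed to -0.19 without both SH2 libraries of set 4 and ran from -0.34 to 0.39 with 1 library left out, and PSME4 from -0.09 to 0.25. Ratios of inducible to constitutive subunits, from which nothing is read, changed sign too: the PSMB8 to PSMB5 log2 ratio in untreated SH2 against untreated control cells reversed to 0.06 with 1 CPM added, and ran from -2.35 to 0.54 with 1 library left out. The PSMB10 to PSMB7 ratio ran from -1.24 to 0.13 in treated against untreated SH2 cells and from -0.49 to 2.25 in untreated SH2 against untreated control cells. The causes were not tested. The difference between responses uses all groups, so a fit on the compared groups alone was not run for it, and PSMB9 gave no ratio. Where leaving out a control library left 1, it was assumed to vary like the other groups. PSMB3, PSMB8, PSMB9 and PSMB10 had 0 to 27 reads each, and PSMA6 had the next lowest sum, 277 reads. The cause of the low counts was not tested.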
